A study of Mus musculus with 6 samples.

Results

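The genes described here encode the machinery of mitosis: cyclins, mitotic kinases, the spindle checkpoint, the anaphase-promoting complex (APC/C), the kinetochore, the spindle, and the cohesin and condensin rings. They were taken from a list of 57 gene symbols with mitotic roles, of which 56 had a probe set in the 19937 genes tested; Ccnb1, which encodes cyclin B1, had 0 probe sets under its symbol and is not measured here. The cells were clone #483 of mouse T-ALL (acute lymphoblastic leukaemia of T cells), on a C57BL6 background, so every value comes from 1 clone. One group received 100 µM 4EGI-1, an inhibitor that keeps eIF4E, which binds the mRNA cap, from joining eIF4G, for 2 h, and the other group is titled untreated; the protocol names the solvent DMSO, and whether the untreated cells received it is not settled by the labels. RNA of the pooled polysome fractions of a sucrose gradient was hybridised to 1 array per sample, with 3 arrays with 4EGI-1 and 3 untreated arrays. Values are log2 signals after the authors' RMA normalization, relative within an array, and their precision is limited by the number of arrays.

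The arrays of a group correlated at 0.996 with 4EGI-1 and at 0.997 in untreated cells across genes, and arrays of different groups at 0.988 to 0.990. All 11 measured T-cell markers had mean signals above the table's median of 6.41, at 8.09 to 12.4. Signals were 4.39 to 6.74 for 5 B-cell markers, 4.99 to 6.80 for 7 myeloid, 6.10 to 7.03 for 4 erythroid and 5.31 to 8.93 for 6 stromal and endothelial markers, the highest being Pecam1. Signals of different probe sets are not on a common scale, so these values describe each list and do not rank them. Of the T-cell markers, 1 was called higher and 5 lower with 4EGI-1, and 1 marker each of the B-cell list (Blnk, 0.99) and the myeloid list (Adgre1, 0.64) was called higher on the log2 scale. Among all genes tested 11.5% were called higher and 11.5% lower. Among genes with a signal of at least the table's median, the shares were 17.3% and 18.9%. What part the changes of these markers have in the results below was not tested. In polysomal RNA of whole cultures, fewer cells of a type and less RNA per cell cannot be told apart, nor can less mRNA in the cell and less of it on polysomes, since arrays of total RNA were not used here.

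As background, entry into mitosis is driven by cyclin-dependent kinase 1 (Cdk1) bound to A-type and B-type cyclins and is reinforced by Polo-like and Aurora kinases and by Cdc25 phosphatases. Condensin compacts the chromosomes, cohesin holds sister chromatids together, and kinetochores attach them to spindle microtubules, while the spindle checkpoint holds the APC/C inactive until every chromosome is attached. The APC/C then marks securin and cyclin B for destruction, separase cuts cohesin, and the cell divides. Many regulators of mitosis are made and destroyed in each cycle, and sustained proliferation of leukaemic cells depends on this cycle.

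After 4EGI-1 most regulators of mitosis were called lower on polysomes, while structural genes went both ways: of 28 measured, 13 rose, 5 fell and 10 were not called, with a median log2 difference (4EGI-1 minus untreated) of 0.14. Most of those for large proteins were called higher. Regulators here are the cyclins, Cdk1 and Cks genes, kinases, Cdc25 phosphatases, Bub3 and Mad2l1, the APC/C activators, securin and separase, the passenger complex and Cdca genes, and Fam83d, Ect2 and Racgap1. Large structural genes are the SMC ATPases, Stag2, Ncapd2, Ncapg, Cenpe, Cenpf, Kntc1, Anapc1 and Anln. Classes, roles and sizes were assigned by hand from general knowledge, for members chosen with earlier results of these data known. The sizes were assigned after the data had been seen. The split is therefore a description and not independent evidence of its direction. Of 28 measured regulators 18 fell, 4 rose and 6 did not pass, with a median of -0.31. Of 12 large structural genes 8 rose, 0 fell and 4 did not pass, with a median of 0.35. The other 16 structural genes were divided, with 5 called higher, 5 called lower and 6 not called, and a median of -0.11. Within regulators, the 3 known large proteins were Espl1, Bub1 and Bub1b, and of these the first 2 rose. The median over all genes tested was -0.03. Calls are at a Benjamini-Hochberg adjusted p under 0.05 in limma over all 19937 genes.

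Over all 56 members, 17 rose and 23 fell, which is 30.4% and 41.1% of them. Among all genes tested 11.5% were called higher and 11.5% lower, 22.9% in all. All 56 members had a mean signal of at least 6.41, which is the table's median, and among the 11028 genes at that level 36.2% were called. In 47 members, 83.9% of them, the ranges of treated and untreated arrays stood apart, against 37.9% of all genes and 55.4% of the 11028 genes at that level.

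**Figure D1:**
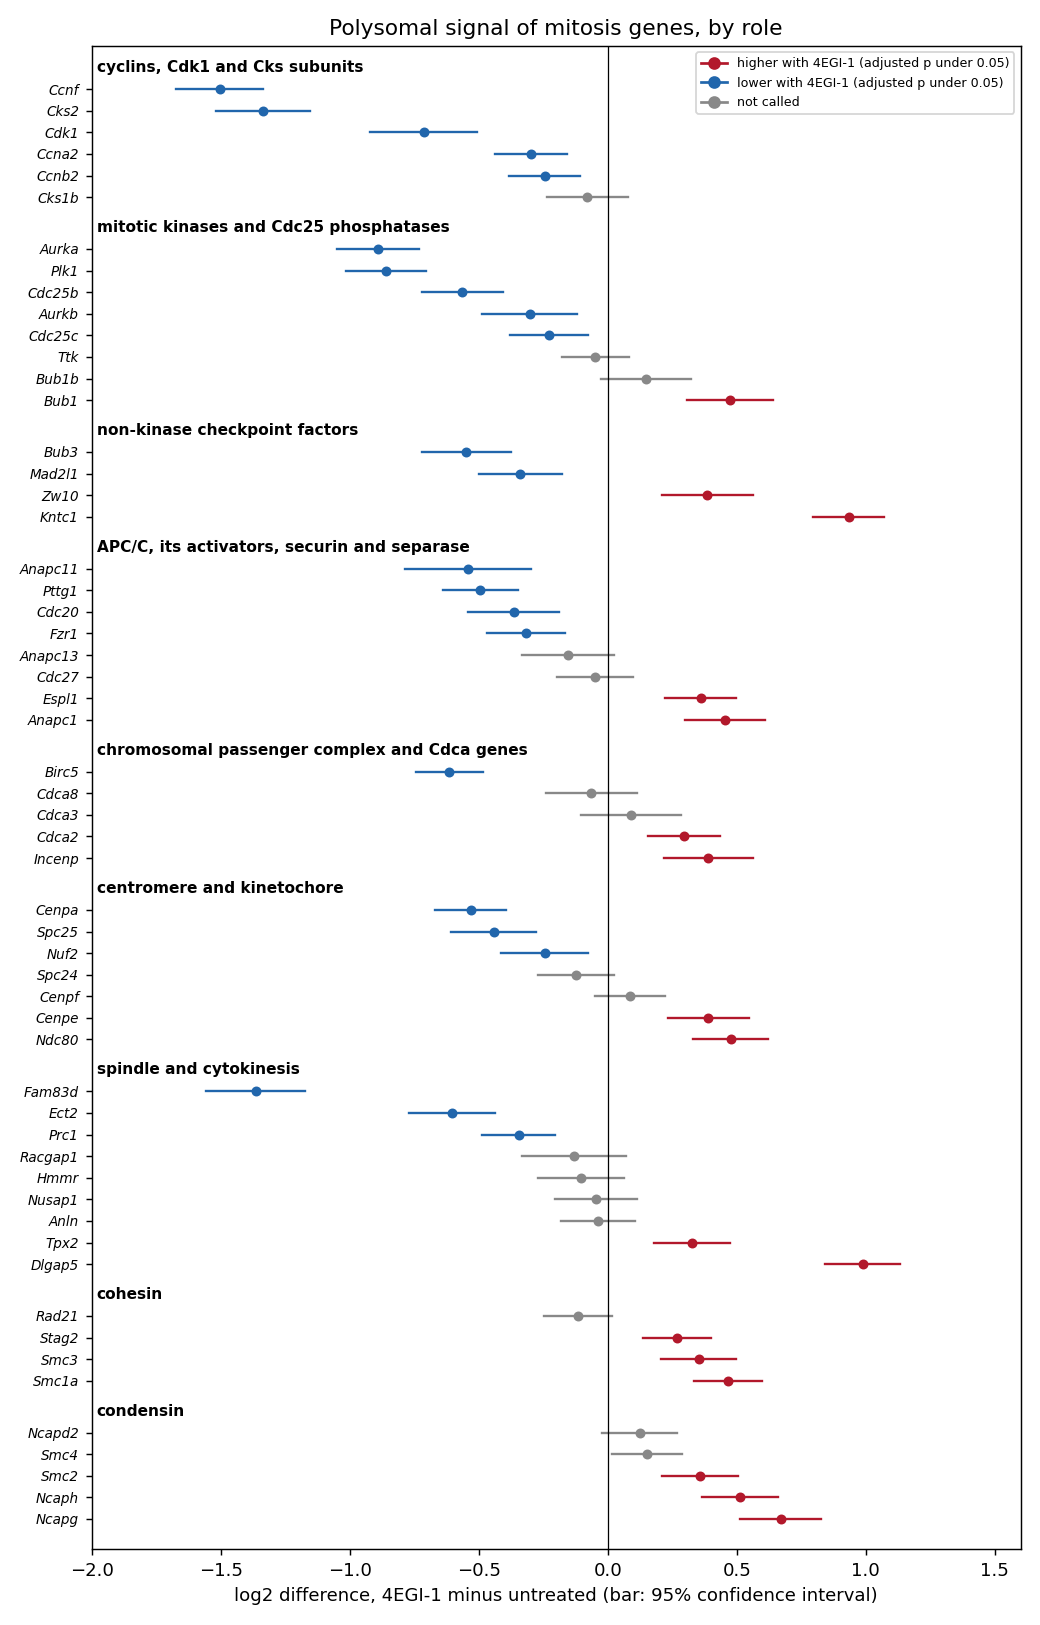
Log2 difference of polysomal signal (4EGI-1 minus untreated, horizontal axis) of the 56 measured mitosis genes, grouped by role, with bars for 95% confidence intervals of the moderated fit to 3 arrays per group. Cyclin and Cdk1 genes lie at or left of 0, down to Ccnf at -1.50, and cohesin and condensin genes lie mostly right of it, with Ncapg at 0.67; the other roles hold genes on both sides.

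Seen array by array, the contrast was present in each treated sample. The median over regulators, relative to each gene's mean in untreated arrays, was -0.26, -0.36 and -0.31 on the 3 arrays with 4EGI-1, against 0.06, -0.04 and -0.02 on the untreated arrays. The median over large structural genes was 0.38, 0.28 and 0.40 with 4EGI-1, against -0.04, 0.00 and 0.04 on the untreated arrays. All 3 treated arrays lay below the untreated ones for regulators and above them for large structural genes. Regulators and structural genes were told apart by hand, gene by gene, for members chosen with earlier results of these data known. Some roles hold both classes: Bub3 and Mad2l1 count as regulators, Kntc1 and Zw10 as structural. Fam83d and Ect2 likewise count as regulators, and Tpx2, an activator of Aurora A, as structural. Large structural genes were named by size after the data had been seen. Members of a complex are also not independent samples, so these medians carry no test.

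**Figure D2:**
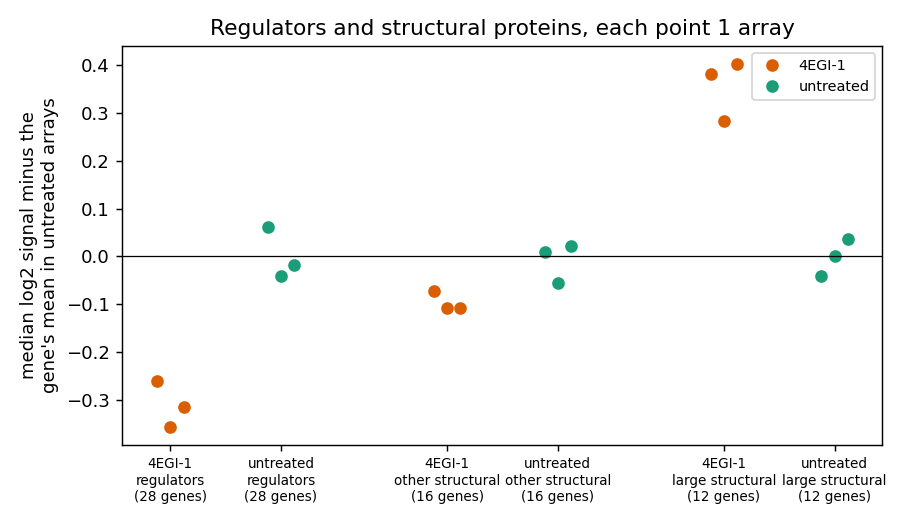
Median over genes of the log2 signal minus the gene's mean in untreated arrays (vertical axis), 1 point per array, for regulators (28 genes), other structural genes (16 genes) and large structural genes (12 genes). The 4EGI-1 arrays lie at -0.36 to -0.26 for regulators and at 0.28 to 0.40 for large structural genes; the untreated arrays stay within -0.04 to 0.06 in those classes.

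Promoters of mitotic genes are known to carry the CHR element (TTTGAA), often beside CCAAT boxes bound by NF-Y. The CHR is bound by the DREAM repressor and by the B-Myb and FoxM1 activator complexes. A list chosen for mitotic roles is therefore likely to be rich in these motifs, and their share among members does not bear on 4EGI-1. RefSeq promoter windows (GRCm38.p6, 250 bases before to 50 after the annotated start) were matched by symbol for 46 of the 57 listed genes. TTTGAA on either strand was found in 28 of the 46 (60.9%), against 20.2% of 27025 genes with a window, and CCAAT on either strand in 34 (73.9%), against 41.1%. Both motifs occurred together in 25 (54.3%), against 7.97% of all genes. By class, TTTGAA was present in 16 of 24 regulators, 6 of 10 large structural genes and 6 of 12 other structural genes. In the same order, CCAAT was present in 87.5%, 70% and 50%, and both motifs in 66.7%, 50% and 33.3%. The regulators here include Ccnb1, which was not measured. By call, TTTGAA was present in 12 of 20 members that fell, in 6 of 12 that rose and in 10 of 13 that did not pass. CCAAT was present in 16 of the 20 that fell (80.0%), in 7 of the 12 that rose (58.3%) and in 10 of the 13 not called (76.9%). Both motifs were present in 12 that fell (60.0%), in 4 that rose (33.3%) and in 9 not called (69.2%). The shares with TTTGAA and with both motifs were thus highest in members not called, and that with CCAAT in members that fell. The differences between directions and between classes were not tested. A match describes letters in a window and does not show a bound site. The stretches below were picked because they hold TTTGAA and show where the letters lie in genes that fell and in genes that rose, with no bearing on how common they are. Each is the last 110 bases before the start, with TTTGAA and CCAAT on either strand in capitals. The first 4 belong to genes that fell (Ccnf, Fam83d, Cdk1 and Cdc20) and the last 3 to genes that rose (Kntc1, Ncapg and Espl1).
Ccnf, chr17:24251410-24251519, minus strand: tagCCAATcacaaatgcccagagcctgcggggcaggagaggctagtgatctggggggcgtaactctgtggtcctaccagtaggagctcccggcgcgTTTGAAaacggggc
Fam83d, chr2:158767989-158768098, plus strand: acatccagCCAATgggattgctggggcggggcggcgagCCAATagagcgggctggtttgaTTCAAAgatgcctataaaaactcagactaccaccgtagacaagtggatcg
Cdk1, chr10:69352913-69353022, minus strand: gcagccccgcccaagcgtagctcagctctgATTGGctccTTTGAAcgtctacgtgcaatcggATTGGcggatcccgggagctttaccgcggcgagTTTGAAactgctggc
Cdc20, chr4:118437344-118437453, minus strand: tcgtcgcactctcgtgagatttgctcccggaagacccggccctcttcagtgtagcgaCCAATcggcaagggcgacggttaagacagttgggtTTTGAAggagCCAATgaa
Kntc1, chr5:123749616-123749725, plus strand: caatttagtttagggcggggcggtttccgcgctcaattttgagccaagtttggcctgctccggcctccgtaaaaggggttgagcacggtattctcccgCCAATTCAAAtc
Ncapg, chr5:45669815-45669924, plus strand: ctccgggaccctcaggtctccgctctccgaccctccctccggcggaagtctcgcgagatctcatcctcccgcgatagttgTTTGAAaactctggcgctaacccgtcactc
Espl1, chr15:102296183-102296292, plus strand: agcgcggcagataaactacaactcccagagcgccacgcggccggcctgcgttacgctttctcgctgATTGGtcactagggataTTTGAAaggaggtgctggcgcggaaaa
In Kntc1 the CCAAT and the reversed TTTGAA share a base, and in Ncapg the CCAAT match lies further upstream, at position -176, outside the stretch shown.

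Cyclins, Cdk1 and the Cks subunits that dock Cdk substrates gave the most uniform fall: 5 of 6 measured fell, 0 rose and Cks1b did not pass (median -0.50). Ccnf, which encodes cyclin F, a substrate receptor of an SCF ubiquitin ligase that does not act through a Cdk, had log2 signals of 7.53, 7.34 and 7.53 with 4EGI-1, against 9.00, 8.91 and 9.00 in untreated cells. The groups lay far apart, and Ccnf fell by 1.50 ± 0.07 (SE; adjusted p = 2.96e-05), to 0.353 times its untreated level. Cks2, the Cks subunit with a known role in germ cells and early embryos, had 9.52, 9.51 and 9.34 with 4EGI-1, against 10.68, 10.84 and 10.86 in untreated cells. It fell by 1.34 ± 0.08 (adjusted p = 5.34e-05), and its other probe sets, 10405185 and 10353004, also fell, with log2 differences of -1.76 and -1.61. With the mean of its probe sets Cks2 fell by 1.57, more than Ccnf, so the order of the largest falls depends on the choice of probe set. Cks1b, its paralogue, which also helps the SCF ligase to recognise p27, differed by -0.08 (95% interval -0.24 to 0.08; adjusted p = 0.488), an interval that does not reach the fall of Cks2. How far the probe sets separate the paralogues was not tested.

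Cdk1, the kinase that starts mitosis, had 10.29, 10.02 and 10.20 with 4EGI-1, against 11.01, 10.82 and 10.83 in untreated cells. Every treated array lay below every untreated one, and Cdk1 fell by 0.71 ± 0.09 (SE; adjusted p = 0.000875). Its measured cyclin partners had smaller changes, although the difference from Cdk1 was not tested and Ccnb1 was not measured. Ccna2, the cyclin of S phase and mitotic entry, fell by 0.30 ± 0.06 (adjusted p = 0.00874) and Ccnb2, a B-type cyclin of the Golgi, by 0.24 ± 0.06 (adjusted p = 0.0193). The call on Ccnb2 ended without 4EGI-1 replicate 2 (adjusted p = 0.0596), 4EGI-1 replicate 3 (0.0507), untreated replicate 1 (0.0613) or untreated replicate 2 (0.0633).

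**Figure D3:**
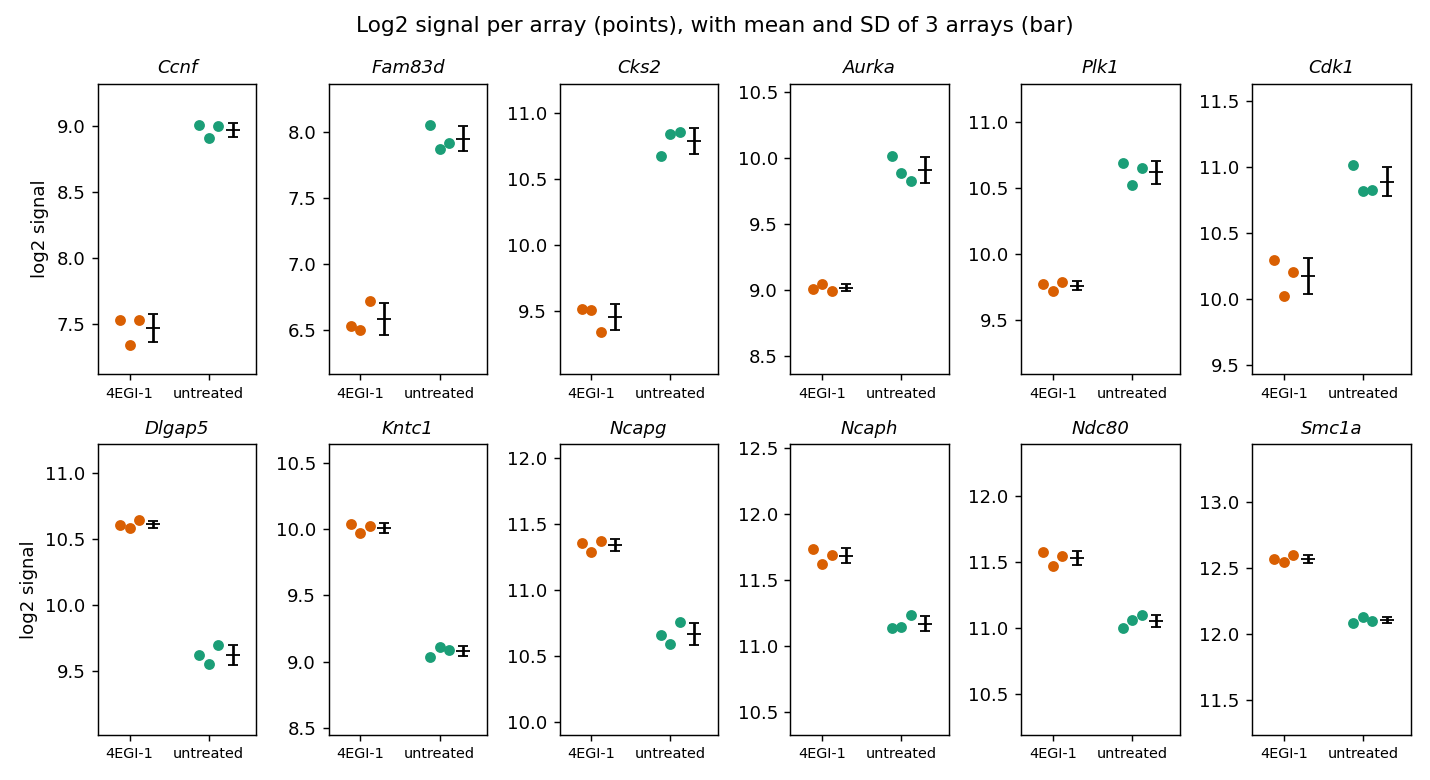
Log2 signal on each array (points) with the mean and SD of 3 arrays per group (black bars) for 6 members that fell (top) and 6 that rose (bottom); each panel spans the same height on the log2 axis. The 4EGI-1 points lie below all untreated points for Ccnf, Fam83d, Cks2, Aurka, Plk1 and Cdk1 and above them for Dlgap5, Kntc1, Ncapg, Ncaph, Ndc80 and Smc1a.

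Among mitotic kinases and Cdc25 phosphatases, 5 of 8 fell, 1 rose and 2 did not pass (median -0.26). Aurka, the Aurora kinase of centrosomes and spindle poles, had 9.01, 9.05 and 9.00 with 4EGI-1, against 10.02, 9.88 and 9.83 in untreated cells. It fell by 0.89 ± 0.07 (SE; adjusted p = 0.000115). Plk1, the Polo-like kinase of mitotic entry and spindle assembly, had 9.77, 9.72 and 9.79 with 4EGI-1, against 10.69, 10.52 and 10.65 in untreated cells. It fell by 0.86 ± 0.07 (adjusted p = 0.000116), so the polysomal signals of Aurka and Plk1 were 0.539 and 0.551 times their untreated levels. Cdc25b, a phosphatase that activates Cdk1, had 7.74, 7.77 and 7.86 with 4EGI-1, against 8.44, 8.30 and 8.30 in untreated cells, and fell by 0.56 ± 0.07 (adjusted p = 0.000751).

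The remaining kinase and phosphatase genes moved little or the other way. Aurkb, the kinase of the chromosomal passenger complex, fell by 0.30 ± 0.08 (adjusted p = 0.0272), and Cdc25c, another activator of Cdk1, by 0.23 ± 0.07 (adjusted p = 0.0407). Both calls were close to the threshold. For Aurkb the adjusted p was 0.0516 without 4EGI-1 replicate 1, 0.0788 without 4EGI-1 replicate 2, 0.0918 without untreated replicate 1 and 0.0568 without untreated replicate 3. For Cdc25c it was above the threshold when any array other than 4EGI-1 replicate 3 was left out, at 0.109 and 0.113 without 4EGI-1 replicates 1 and 2 and 0.0538, 0.113 and 0.125 without untreated replicates 1, 2 and 3. Bub1, a large checkpoint kinase that marks centromeric chromatin, had 11.61, 11.52 and 11.70 with 4EGI-1, against 11.22, 11.09 and 11.09 in untreated cells. It was the only member of this group to rise, by 0.48 ± 0.07 (adjusted p = 0.00216). Its relative Bub1b, which encodes the checkpoint inhibitor BubR1, differed by 0.15 (95% interval -0.02 to 0.32; adjusted p = 0.215), and Ttk, the kinase that starts checkpoint signalling, by -0.05 (-0.18 to 0.08; adjusted p = 0.623).

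The checkpoint factors that are not kinases divided evenly. Bub3, the adaptor that brings Bub1 and BubR1 to kinetochores, had 10.27, 10.12 and 10.19 with 4EGI-1, against 10.85, 10.70 and 10.66 in untreated cells. It fell by 0.55 ± 0.08 (SE; adjusted p = 0.00134), and Mad2l1, whose product Mad2 binds and inhibits Cdc20, fell by 0.34 ± 0.07 (adjusted p = 0.00889). Kntc1, which encodes the large Rod subunit of the RZZ complex that recruits Mad1 and dynein to kinetochores, had 10.04, 9.97 and 10.02 with 4EGI-1, against 9.03, 9.11 and 9.09 in untreated cells. It rose by 0.93 ± 0.06 (adjusted p = 6.38e-05), to 1.91 times its untreated level, and Zw10, a second subunit of the same complex, rose by 0.39 ± 0.08 (adjusted p = 0.00782). The adaptor and inhibitor of the checkpoint were thus lower while both RZZ subunits were higher.

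In the APC/C group, 4 of 8 genes fell, 2 rose and 2 did not pass (median -0.24). Both activators fell: Cdc20, which acts in mitosis, by 0.36 ± 0.08 (SE; adjusted p = 0.0103), and Fzr1, which encodes Cdh1 and acts from mitotic exit into G1, by 0.32 ± 0.07 (adjusted p = 0.00912). The RefSeq span of Cdc20 overlaps that of Elovl1, which fell by 0.29 (adjusted p = 0.0170), and the array values do not separate transcripts that overlap. Securin and separase, the inhibitor and the protease that it holds, went opposite ways. Pttg1, which encodes securin, fell by 0.49 ± 0.06 (adjusted p = 0.000925) and Espl1, which encodes the large protease separase, rose by 0.36 ± 0.06 (adjusted p = 0.00345).

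The core subunits of the APC/C likewise differed. Anapc11, the small RING subunit of the catalytic core, had 7.42, 7.40 and 7.21 with 4EGI-1, against 7.69, 8.07 and 7.90 in untreated cells. It fell by 0.54 ± 0.11 (SE; adjusted p = 0.00718), with the largest error among the members. Anapc1, the large scaffold subunit, had 11.17, 11.14 and 11.20 with 4EGI-1, against 10.64, 10.69 and 10.82 in untreated cells, and rose by 0.45 ± 0.07 (adjusted p = 0.00195). Cdc27, a subunit that binds the activators, differed by -0.05 (95% interval -0.20 to 0.10; adjusted p = 0.661), and its span overlaps that of Myl4, which fell by 0.49. Anapc13, a small accessory subunit, differed by -0.16 (-0.33 to 0.02; adjusted p = 0.210) and passed only with a trended robust prior (adjusted p = 0.0340).

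The chromosomal passenger complex places Aurora B at centromeres and later at the midzone of the spindle. Birc5, which encodes its small subunit survivin, had 10.79, 10.83 and 10.81 with 4EGI-1, against 11.42, 11.41 and 11.44 in untreated cells. It fell by 0.61 ± 0.06 (SE; adjusted p = 0.000201), the smallest standard error of the 56 members. Incenp, its scaffold, had 9.60, 9.43 and 9.66 with 4EGI-1, against 9.13, 9.20 and 9.19 in untreated cells, and rose by 0.39 ± 0.07 (adjusted p = 0.00653). Cdca8, which encodes the borealin subunit, differed by -0.06 (95% interval -0.24 to 0.11; adjusted p = 0.628). With Aurkb, the complex therefore held 2 genes that fell, 1 that rose and 1 that did not pass. Of the other Cdca genes, Cdca2, which encodes a targeting subunit of protein phosphatase 1 on chromatin, rose by 0.30 ± 0.06 (adjusted p = 0.00863), and Cdca3, a trigger of mitotic entry, differed by 0.09 (-0.10 to 0.28; adjusted p = 0.518).

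Centromere and kinetochore genes also went both ways, with 2 of 7 called higher, 3 called lower and 2 not called (median -0.12). Cenpa, the histone H3 variant that marks centromeres, had 9.64, 9.68 and 9.60 with 4EGI-1, against 10.14, 10.20 and 10.17 in untreated cells, and fell by 0.53 ± 0.06 (SE; adjusted p = 0.000503). Cenpe, a large motor that carries chromosomes along microtubules, rose by 0.39 ± 0.07 (adjusted p = 0.00427). Cenpf, a large coiled-coil protein of the outer kinetochore, differed by 0.09 (95% interval -0.05 to 0.22; adjusted p = 0.371).

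The Ndc80 complex, the main microtubule coupler of the kinetochore, has 4 subunits, all among the members. Ndc80 itself had 11.57, 11.47 and 11.55 with 4EGI-1, against 11.00, 11.06 and 11.10 in untreated cells, and rose by 0.48 ± 0.06 (SE; adjusted p = 0.00105). Its partners did not rise: Spc25 fell by 0.44 ± 0.07 (adjusted p = 0.00299), Nuf2 fell by 0.24 ± 0.07 (adjusted p = 0.0444) and Spc24 differed by -0.12 (95% interval -0.27 to 0.02; adjusted p = 0.229). The interval for Ndc80, 0.33 to 0.62, lay above those of its 3 partners, although the difference between subunits was not tested. The call on Nuf2 ended when any array other than untreated replicate 2 was left out, with an adjusted p of 0.0696, 0.122 and 0.0945 without 4EGI-1 replicates 1, 2 and 3 and of 0.125 and 0.0866 without untreated replicates 1 and 3.

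Spindle and cytokinesis genes held large changes in both directions, with 2 of 9 higher, 3 lower and 4 not called (median -0.10). Fam83d, which recruits casein kinase 1 and a kinesin to the spindle, had 6.53, 6.50 and 6.72 with 4EGI-1, against 8.05, 7.87 and 7.92 in untreated cells. It fell by 1.36 ± 0.08 (SE, adjusted p = 5.72e-05), to 0.388 times its untreated level. Its signals with 4EGI-1 lay close to the table's median of 6.41, and how near this is to background was not tested. Dlgap5, which encodes HURP, a protein that stabilises kinetochore microtubules, had 10.60, 10.58 and 10.64 with 4EGI-1, against 9.62, 9.55 and 9.69 in untreated cells. It rose by 0.99 ± 0.06 (adjusted p = 6.65e-05), to 1.98 times its untreated level, although it was not classed as a large protein.

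Of the other 7 spindle and cytokinesis genes, Ect2, the exchange factor that activates RhoA at the cleavage site, had 10.77, 10.62 and 10.74 with 4EGI-1, against 11.37, 11.22 and 11.34 in untreated cells. It fell by 0.60 ± 0.07 (SE; adjusted p = 0.000675). Prc1, which bundles antiparallel microtubules of the midzone, fell by 0.35 ± 0.06 (adjusted p = 0.00448), while Tpx2, the activator of Aurora A on the spindle, rose by 0.33 ± 0.06 (adjusted p = 0.00729). Tpx2 therefore moved against Aurka, the kinase that it activates. Racgap1 (the centralspindlin subunit that binds Ect2), Hmmr (a microtubule-bound hyaluronan receptor), Nusap1 (a microtubule stabiliser) and Anln (the large scaffold of the contractile ring) did not pass. Their log2 differences lay between -0.13 and -0.04. The span of Anln overlaps that of 9530077C05Rik, which fell by 0.36.

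Cohesin genes mostly rose, with 3 of 4 higher and 0 lower (median 0.31). Smc1a, an ATPase of the cohesin ring, had 12.57, 12.55 and 12.60 with 4EGI-1, against 12.09, 12.13 and 12.10 in untreated cells. It rose by 0.46 ± 0.06 (SE; adjusted p = 0.000776), and its ring partner Smc3 rose by 0.35 ± 0.06 (adjusted p = 0.00477). Stag2, the HEAT-repeat subunit that binds the ring, rose by 0.27 ± 0.06 (adjusted p = 0.0104). Rad21, the kleisin that closes the ring and is cut by separase, differed by -0.11 (95% interval -0.25 to 0.02; adjusted p = 0.214), and it was called lower with a trended robust prior (adjusted p = 0.0175). The RefSeq span of Smc1a overlaps that of Ribc1, which was 1.14 higher on the log2 scale (adjusted p = 0.000139).

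Condensin genes had higher signals on all treated arrays than on all untreated arrays in each of the 5 members, of which 3 rose and 2 did not pass (median 0.36). The same held for 3395 of all 19937 genes, and for 2669 of the 11028 with a signal of at least the table's median. Ncapg, a HEAT-repeat subunit of condensin I, had 11.36, 11.28 and 11.37 with 4EGI-1, against 10.66, 10.59 and 10.76 in untreated cells. It rose by 0.67 ± 0.07 (SE; adjusted p = 0.000318); its span overlaps that of Lcorl, which was 0.36 higher. Ncaph, the kleisin of condensin I, had 11.73, 11.62 and 11.69 with 4EGI-1, against 11.13, 11.14 and 11.23 in untreated cells, and rose by 0.51 ± 0.06 (adjusted p = 0.000820). Of the kleisins of the 2 rings, Ncaph was called higher and Rad21 was not called; the difference between them was not tested.

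The ATPase Smc2 rose by 0.36 ± 0.06 (SE; adjusted p = 0.00464). Its partner Smc4 differed by 0.15 (95% interval 0.02 to 0.29; adjusted p = 0.104) and passed when only genes with a signal of at least the table's median were tested (adjusted p = 0.0367), with quantile-normalized values (0.0314) and under a trended robust prior (0.00465). Ncapd2, the other HEAT-repeat subunit of condensin I, differed by 0.12 (-0.02 to 0.27; adjusted p = 0.217).

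**Figure D4:**
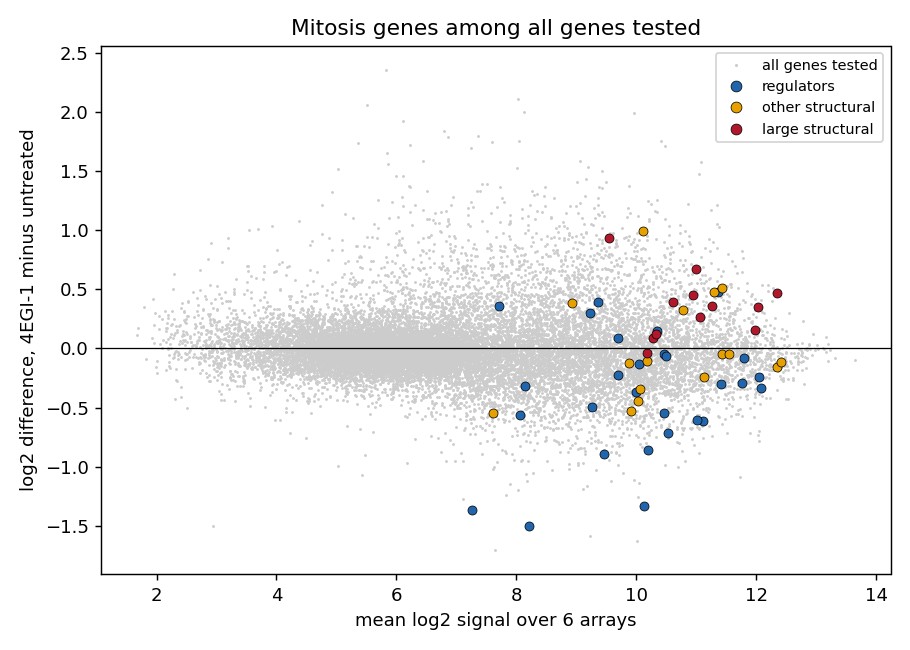
Mean log2 signal over 6 arrays (horizontal axis) against the log2 difference, 4EGI-1 minus untreated (vertical axis), for all 19937 genes tested (grey) and the mitosis genes (regulators blue, other structural yellow, large structural red). The members lie at mean signals of 7.26 to 12.4; regulators reach down to -1.50 and large structural genes up to 0.93.

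The classes were also set side by side for signal level. Regulators had mean signals of 7.26 to 12.1 (median 10.2) and large structural genes of 9.54 to 12.3 (median 11.0), so the ranges overlapped, and of the 6 members with the lowest mean signals 5 were regulators and the other was Anapc11. Ccnf and Fam83d had mean signals of 8.22 and 7.26.

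Beyond the members, 86 other genes of mitosis were listed, of which 84 were measured, 83 of them with a signal of at least the table's median. Of the 11028 genes at that level 17.3% were called higher and 18.9% lower, against 11.5% each way among all genes. Of the 84 measured, 21 were called higher (25.0%), 19 lower (22.6%) and 44 were not called (47.6% called, median -0.01). The 3 with the smallest adjusted p among those that rose were Ckap5, which encodes the microtubule polymerase chTOG, Ncapd3, a subunit of condensin II, and Numa1, an organiser of spindle poles. They rose by 1.25 ± 0.07, 0.92 ± 0.06 and 0.74 ± 0.06 (SE). The 3 with the smallest adjusted p among those that fell were Kpna2, an importin that binds spindle factors, Haspin, the histone H3 kinase that recruits the passenger complex, and Cenpl, a subunit of the inner kinetochore. They fell by 1.09 ± 0.06, 0.79 ± 0.07 and 0.62 ± 0.09. This list was not divided by protein size. Aspm, a very large spindle-pole protein singled out after its value was seen, fell by 0.30 ± 0.08 (adjusted p = 0.0286). Ckap5, Ncapd3 and Numa1, named above among those that rose, also encode large proteins, so Aspm does not stand for the large proteins of this list.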

How the data were processed

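The authors deposited log2 signals for each probe set on each array, normalized by RMA, per the submitters' processing notes; its version and settings are not given in sources used here. Groups came from the sample titles, and the design text calls the samples biological replicates. Of 34760 probe sets, 21640 carried 1 gene symbol in the platform annotation, updated by Entrez identifier through RefSeq (GRCm38.p6); of a symbol's probe sets, that of highest mean signal over 6 arrays was kept, giving 19937 genes. Differences (4EGI-1 minus untreated) were fitted across all genes, without filter, in R 4.3.3 with limma 3.58.1 (lmFit, eBayes); p-values are two-sided and Benjamini-Hochberg adjusted over all genes, and SE is the moderated standard error. The fit was tested on simulated data.

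The members and lists were chosen with earlier results of these data known. Large proteins were named from general knowledge after the data were seen, in place of a planned limit on protein length, because no protein lengths were used here: Smc1a, Smc2, Smc3, Smc4, Stag2, Ncapd2, Ncapg, Cenpe, Cenpf, Kntc1, Anapc1 and Anln among structural genes, and Espl1, Bub1 and Bub1b among regulators. Array values are given for members called with a log2 difference of at least 0.5 either way and for the largest called change each way within a role; of the other lists, the 3 with the smallest adjusted p each way are named. Promoter sequences are from RefSeq. Alternatives tried were a block for replicate number, only genes above the table's median, the mean of probe sets, quantile normalization, a trended robust prior, an adjusted p under 0.01, a split by size alone and leaving out each array.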

Additional observations from a re-analysis of the deposited data

How the results depend on the processing

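Of the 40 called members, 36 kept call and direction under all 11 alternatives in which they were fitted; the exceptions were Ccnb2, Aurkb, Cdc25c and Nuf2. Of the 16 members not called, 13 stayed so, the exceptions being Anapc13, Rad21 and Smc4. No called value changed sign. Leaving out 1 array gave 17 members higher and 19 to 21 lower, 3546 to 3892 genes called in all, and 18 to 21 higher and 15 to 17 lower among other mitosis genes; the median of regulators ranged from -0.34 to -0.29 and that of large structural genes from 0.33 to 0.39. At an adjusted p under 0.01, 16 members were higher and 18 lower, against 2736 genes called in all and 13 higher and 12 lower among other mitosis genes, fewer because the threshold is stricter. Splitting all members by known protein size alone gave a median of 0.36 for 15 large proteins and -0.24 for the other 41. The 15 include all 12 large structural genes and were named after the data were seen, so their median was largely fixed in advance. The value for the other 41 differed from the regulators' median of -0.31 by more than the SD between array medians (0.05). Same-numbered arrays deviated together little (r = 0.0609, 0.107 and -0.0214 across genes) and not every array correlated best with its own number, so the numbers were not taken as pairs; the replicate block gave 17 members higher and 22 lower and 4071 genes called, and it ended the call on Cdc25c (adjusted p = 0.0587). The number of arrays limits precision: the smallest called difference of a member was 0.23 in size on the log2 scale, with Cdc25c lower.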

Other observations

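Genes of the G1/S transition, at which cells enter DNA replication, also moved in both directions. Of 24 listed, 23 had a probe set, all with a signal of at least the table's median. Of the 11028 genes at that level 17.3% were called higher and 18.9% lower, against 11.5% each way among all genes. Of the 23, 6 rose, 9 fell and 8 were not called, with a median log2 difference (4EGI-1 minus untreated) of -0.12. The 3 with the smallest adjusted p among those that rose encode subunits of the MCM helicase: Mcm4 had a mean of 11.46 with 4EGI-1, against 10.69 in untreated cells, and rose by 0.77 ± 0.07 (SE), Mcm2 rose by 0.56 ± 0.07 and Mcm7 by 0.65 ± 0.09. The 3 among those that fell were Ccnd1, which encodes cyclin D1, Gmnn, which encodes geminin, the inhibitor of origin licensing, and Ccnd2. Ccnd1 averaged 9.41 ± 0.08 with 4EGI-1 and 10.66 ± 0.09 in untreated cells (SD, n = 3 each), Gmnn fell by 0.52 ± 0.06 (SE) and Ccnd2 by 0.69 ± 0.09. The list's other cyclins, Ccnd3, Ccne1 and Ccne2, singled out after their values were seen, were also called lower, by 0.43, 0.59 and 0.27.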
